A study of Mus musculus with 28 samples.

Results

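The genes of oxidative phosphorylation examined here were 93 nuclear genes with a promoter peak of H3K27ac in at least 1 library, of 15868 genes with such a peak. They were chosen by symbol alone: genes starting with Ndufa, Ndufb, Ndufc, Ndufs or Ndufv (complex I), Sdha to Sdhd (complex II), Uqcr (complex III), Cox4 to Cox8 (complex IV) or Atp5 (complex V), with the assembly factors that carry such names. Their promoter peaks numbered 1261 of 173030 over the 12 libraries. No level or change entered the choice beyond this call of a promoter peak. The prefixes do not follow function throughout: Atp5sl is listed in RefSeq as Dmac2, known as an assembly factor of complex I, and Ndufa4 is now regarded as a subunit of complex IV.

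The mark profiled was H3K27ac, an acetyl group on histone H3 that is found at promoters and enhancers in use. The assay was ChIPmentation, in which a transposase adds the sequencing adapters during the immunoprecipitation. Germ cells were taken from testes of mice of C57BL/6 background, wild type (WT) or Scml2-KO (KO). Thy1+ spermatogonia, which include undifferentiated cells, and c-Kit+ spermatogonia, which are differentiating, came from mice at postnatal day 7 and were profiled in both genotypes. Pachytene spermatocytes (PS), in mid-meiosis, and haploid round spermatids (RS) came from adult mice and were profiled here in the KO only, so that stage cannot be told apart from the age of the mice, and the genotype of the adult cells has no control here. Each of the 6 groups had 2 libraries. The labels do not say that these came from separate animals, so the p-values below measure the spread between these libraries, which may be technical. The 16 input libraries, of chromatin without immunoprecipitation, came from 8 groups of 2.

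Oxidative phosphorylation is the process by which mitochondria pass electrons from NADH (complex I) and succinate (complex II) through complexes III and IV to oxygen, and use the proton gradient so formed to make ATP at complex V. Most subunits are encoded in the nucleus and are needed in nearly every cell, but several subunits of cytochrome c oxidase (complex IV) have copies used in particular tissues. Cox6b2, Cox7b2 and Cox8c are the copies known from testis, and Cox6b1, Cox7b and Cox8a are their general counterparts. Many general subunit genes are known targets of the transcription factors NRF1, GABPA (an ETS factor) and YY1.

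The promoters themselves are shown first for the isoform pairs and for the members with the largest changes described below. The sequences are the 250 bases before the start of each gene, 5′ to 3′ on the gene's own strand, from RefSeq (GRCm38.p6). Capitals mark matches on either strand to 6 motifs searched: NRF1 (GCGCA and GCGC with any 1 base between them), ETS (CCGGAAG), YY1 (AAGATGGC), a cAMP response element (TGACGTCA), a TATA box (TATAAA) and the CCAAT box (CCAAT). None of the 6 contains another, though matches may overlap. The table held no window for Cox8c. The windows lie at chr7:4753095-4753344 (− strand, Cox6b2), chr7:30626115-30626364 (− strand, Cox6b1), chr5:71548206-71548455 (− strand, Cox7b2), chrX:106015450-106015699 (+ strand, Cox7b), chr19:7217617-7217866 (− strand, Cox8a), chr13:86046796-86047045 (− strand, Cox7c), chr9:108567437-108567686 (− strand, Ndufaf3) and chr5:108434400-108434649 (− strand, Atp5k).
Cox6b2: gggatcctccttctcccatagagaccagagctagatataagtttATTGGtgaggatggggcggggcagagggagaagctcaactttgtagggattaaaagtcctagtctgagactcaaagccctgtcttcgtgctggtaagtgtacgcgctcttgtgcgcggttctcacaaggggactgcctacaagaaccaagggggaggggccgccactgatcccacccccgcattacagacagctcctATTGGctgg
Cox6b1: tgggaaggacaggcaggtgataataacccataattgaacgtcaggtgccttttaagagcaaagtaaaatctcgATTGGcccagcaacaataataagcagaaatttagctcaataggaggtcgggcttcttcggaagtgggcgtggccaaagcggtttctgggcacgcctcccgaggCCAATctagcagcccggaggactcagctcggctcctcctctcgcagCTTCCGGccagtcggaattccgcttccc
Cox7b2: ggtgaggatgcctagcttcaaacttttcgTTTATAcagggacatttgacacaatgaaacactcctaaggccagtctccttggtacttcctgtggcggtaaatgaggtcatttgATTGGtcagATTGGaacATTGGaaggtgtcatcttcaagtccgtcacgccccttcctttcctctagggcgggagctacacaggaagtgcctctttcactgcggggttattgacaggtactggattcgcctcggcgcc
Cox7b: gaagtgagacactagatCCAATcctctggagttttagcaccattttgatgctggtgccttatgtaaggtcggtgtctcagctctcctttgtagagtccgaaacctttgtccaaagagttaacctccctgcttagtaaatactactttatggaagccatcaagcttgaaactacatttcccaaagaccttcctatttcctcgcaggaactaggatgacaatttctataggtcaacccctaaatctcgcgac
Cox8a: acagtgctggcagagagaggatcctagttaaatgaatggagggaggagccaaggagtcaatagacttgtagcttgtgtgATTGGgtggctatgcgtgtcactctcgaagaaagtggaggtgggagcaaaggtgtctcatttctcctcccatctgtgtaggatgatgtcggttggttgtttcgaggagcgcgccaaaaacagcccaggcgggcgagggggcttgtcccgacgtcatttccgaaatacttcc
Cox7c: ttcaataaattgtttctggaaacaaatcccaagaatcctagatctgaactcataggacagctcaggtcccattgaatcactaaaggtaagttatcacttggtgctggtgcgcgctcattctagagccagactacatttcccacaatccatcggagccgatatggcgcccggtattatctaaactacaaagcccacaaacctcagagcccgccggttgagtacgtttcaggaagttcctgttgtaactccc
Ndufaf3: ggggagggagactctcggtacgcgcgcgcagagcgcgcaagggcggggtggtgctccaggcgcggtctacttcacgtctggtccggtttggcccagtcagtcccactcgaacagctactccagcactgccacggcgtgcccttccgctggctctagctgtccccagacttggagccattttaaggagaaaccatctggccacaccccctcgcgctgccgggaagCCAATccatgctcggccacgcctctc
Atp5k: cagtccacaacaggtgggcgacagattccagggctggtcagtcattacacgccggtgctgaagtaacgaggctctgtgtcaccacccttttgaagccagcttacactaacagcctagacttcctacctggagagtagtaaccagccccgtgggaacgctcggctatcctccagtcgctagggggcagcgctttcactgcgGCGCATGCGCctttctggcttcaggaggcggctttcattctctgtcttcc

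In the bases shown, CCAAT boxes were found in the testis copies Cox6b2 and Cox7b2, in the general copies Cox6b1, Cox7b and Cox8a, and in Ndufaf3. Cox7b2 also held a TATA match and Cox6b1 an ETS match, while Cox6b2, Cox7b2, Cox7b and Cox8a held no match to the NRF1, ETS or YY1 letters. Atp5k, a small subunit of ATP synthase, held an NRF1 match that reads on both strands. The longer windows counted in the next paragraph run past the start and also held an ETS match for Cox8a and for Atp5k. Cox6b2, Cox7b2 and Cox7b held no NRF1, ETS or YY1 match in those windows either. Cox7c and Ndufaf3 are shown because they moved furthest between stages, as given below; Cox7c held none of the 6 motifs here.

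Over all members, 75 of 93 had an entry in the promoter table, with 80 windows of 250 bases before to 50 after a start. The NRF1 letters were found in 20 of the 80 windows (25%), against 4.60% of all 32851 windows of the same length. The ETS letters were found in 19 (23.8%, against 8.86%) and the YY1 letters in 9 (11.3%, against 2.75%). At least 1 of these 3 motifs occurred in 42 windows (52.5%), against 14.7% of all windows. The CCAAT box, in 34 windows (42.5%), and the TATA box, in 8 (10%), were found at shares of 37.4% and 13.6% in all windows. The members' windows held a median of 19 CpG dinucleotides, and all windows a median of 7. These matches describe the letters of the windows, and the counts do not weigh the difference in CpG content.

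Promoters of these genes carried H3K27ac in almost every library. A promoter peak was called for 85 to 88 of the 93 members in the 8 spermatogonial libraries and for 91 or 92 in the 4 libraries of adult cells. Of all 15868 genes, 10572 to 12896 were called in a spermatogonial library and 13683 to 14443 in an adult one. In all 12 libraries, 83 members were called (89.2%), where 58.9% of all 15868 genes were. In all 4 adult libraries, 91 members were called (97.8%), against 80.4% of all genes. No member had a promoter peak in any of the 16 inputs. Each input held promoter peaks for only 13 to 27 genes in all, so this absence does not set the members apart. Libraries held 17877 to 36362 peaks of all kinds in spermatogonia and 63322 to 73316 in adult cells, and replicate 1 held more than replicate 2 in every group, so that a missing call in spermatogonia was made against fewer called peaks. The read depth is not given in the sources used here. Of the marker genes of the labelled cells, all 5 of PS and all 5 of RS had promoter peaks in both PS and both RS libraries. No RS marker had one in spermatogonia. The PS marker Sycp3 was also called in both Thy1+ WT libraries and in 1 of 2 libraries of each other spermatogonial group. The 6 markers of Thy1+ spermatogonia did not separate the groups: Etv5 was called in both libraries of all 6 groups, Zbtb16 and Id4 in both libraries of PS and of RS among others, and Thy1 itself and Ret in no library. Of the 4 markers of c-Kit+ spermatogonia, Kit was called in both c-Kit+ libraries of each genotype and in all PS and RS libraries. Kit was also called in 1 of 2 libraries of Thy1+ WT and of Thy1+ KO. Stra8, Sohlh1 and Dmrtb1 were called in neither c-Kit+ WT library. Between 2 and 8 of 13 markers of somatic testis cells were called in both libraries of a group, with the most in PS KO; their part in the values below was not tested. Scml2 itself had a promoter peak in 1 of 2 libraries of Thy1+ KO and of c-Kit+ KO and in both of PS KO, and in none of the WT or RS KO libraries, and H3K27ac does not test the knockout.

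The level at a promoter is given below as fold enrichment, the peak's height plus 1 over a background height plus 1 that was constant within each library. It is the authors' value, uses no input, and depends on the library, so levels were also ranked within each library as a percentile among all genes with a promoter peak there. Members stood somewhat above the middle of this ranking, with a median percentile between 59.0 and 66.7 in the 12 libraries, and 58.1% to 75% of the called members lay above the middle rank. The members' median fold enrichment was 9.30 to 18.7 in spermatogonial libraries, where the median over all genes was 8.06 to 15.2, and 14.6 to 22.4 in adult libraries, where it was 13.0 to 18.1. It exceeded the median over all genes in each of the 12 libraries. Their longest promoter peaks had a median length of 875 to 1406 bp in spermatogonia and 1673 to 1880 bp in adult cells (all genes, 778 to 1363 bp and 1557 to 1872 bp).

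**Figure D1:**
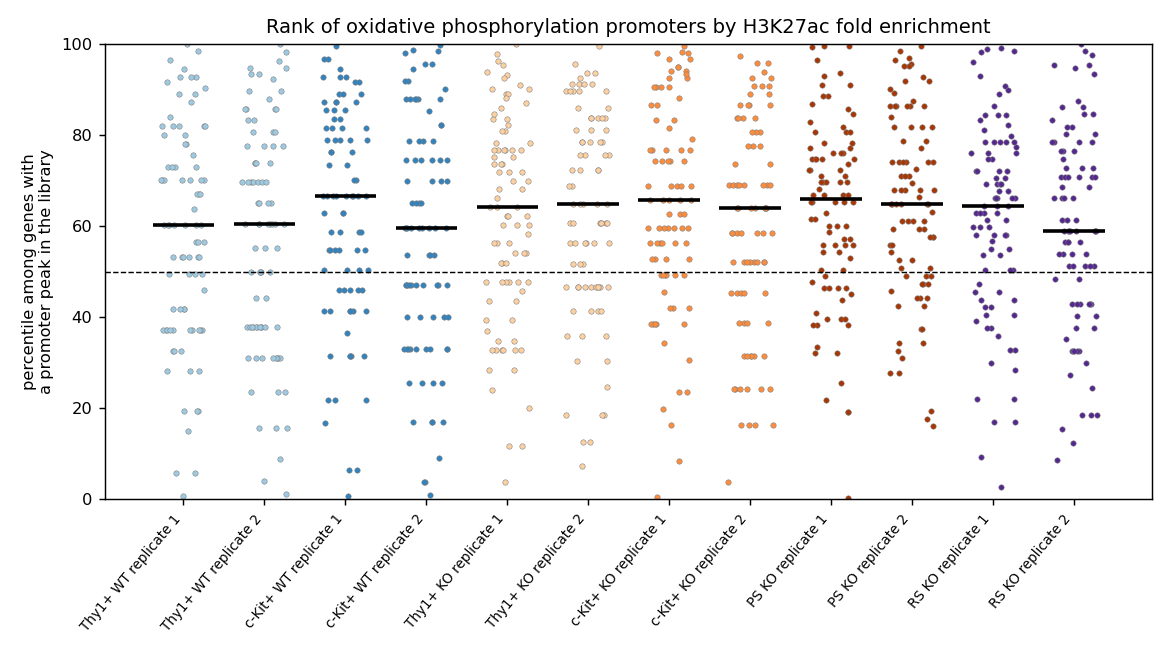
Percentile of each called member among all genes with a promoter peak in the same library, by fold enrichment (vertical axis), for the 12 H3K27ac libraries (horizontal axis, coloured by group; each point is 1 gene, black bars are medians, and the dashed line is the middle rank). The medians lie between 59.0 and 66.7 in the 12 libraries.

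The members ranged over the whole ranking. Sdhaf2, an assembly factor that helps to attach FAD to complex II, stood highest, with a median percentile of 99.7 over the 12 libraries. Its fold enrichment ranged from 16.3 in c-Kit+ KO replicate 2 to 52.1 in Thy1+ KO replicate 1, with a median of 33.8, and its promoter peak is shared with Cpsf7, a gene of mRNA 3′ end processing. Uqcrh, the hinge subunit of complex III, followed at 98.4, Uqcrfs1, the Rieske iron-sulphur subunit, at 94.2, and Atp5f1, a subunit of the peripheral stalk of ATP synthase, at 93.4. The lowest medians over the libraries with a call belonged to Cox8b (0.263), Cox6a2 (2.72), Cox7a1 (12.3) and Ndufa1 (14.1). The first 3 of these are the copies of complex IV subunits known from heart and skeletal muscle.

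Of the 93 members, 35 (37.6%) shared a promoter peak with another gene, as do 3507 of 15868 genes (22.1%). Examples are Atp5j with Gabpa, which encodes the DNA-binding subunit of the ETS factor named above, Ndufa13 with the testis kinase gene Tssk6, Ndufb11 with Rbm10, and Ndufaf3 with Dalrd3 and the microRNA genes Mir191 and Mir425. H3K27ac at such a promoter cannot be assigned to 1 gene of the pair.

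The testis isoforms were marked in adult cells and largely unmarked in spermatogonia. Cox8c (chromosome 12), the testis copy of subunit 8, had a fold enrichment of 22.1 and 38.4 in PS KO and of 18.8 and 19.5 in RS KO, and no promoter peak in the 8 spermatogonial libraries. Cox7b2 (chromosome 5), the testis copy of subunit 7b, had 7.63 and 12.8 in PS KO, 7.82 and 4.87 in RS KO, and no peak in the 8 spermatogonial libraries. Cox6b2 (chromosome 7), the testis copy of subunit 6b, had 16.4 and 20.8 in PS KO and 14.9 and 8.66 in RS KO. It was also called in 3 spermatogonial libraries, each a replicate 1, at 3.67 in Thy1+ WT, 4.56 in c-Kit+ WT and 9.11 in Thy1+ KO, the last of which lay above RS KO replicate 2. Where a promoter was not called, no peak was listed as its promoter. Unless a peak listed otherwise lay there, its level was below what the caller reported. The lowest fold enrichment reported in a library was between 3.05 and 3.84. Within the adult libraries Cox8c ranked between percentiles 66.1 and 96.8, Cox6b2 between 29.9 and 59.3 and Cox7b2 between 8.50 and 34.2.

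The general isoforms were marked at both stages. Cox8a had a fold enrichment of 13.6 and 12.7 in Thy1+ WT, 11.97 and 11.2 in c-Kit+ WT, 25.8 and 15.99 in Thy1+ KO, 15.1 and 11.1 in c-Kit+ KO, 31.3 and 32.5 in PS KO and 22.3 and 26.0 in RS KO. PS KO lay above all other groups on this scale, and RS KO overlapped Thy1+ KO. Cox6b1 had 8.38 and 7.84 in Thy1+ WT, 9.12 and 6.20 in c-Kit+ WT, 16.2 and 9.59 in Thy1+ KO, 8.99 and 5.83 in c-Kit+ KO, 14.9 and 18.7 in PS KO and 12.9 and 10.8 in RS KO, and the groups overlapped. Cox7b, which is X-linked, had 11.5 and no call in Thy1+ WT, 9.12 and 5.58 in c-Kit+ WT, 11.1 and 6.40 in Thy1+ KO, 8.99 and 5.25 in c-Kit+ KO, 7.63 and 7.46 in PS KO and 5.08 and 5.95 in RS KO. Its levels overlapped between the stages, with replicate 1 the higher in each spermatogonial group.

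**Figure D2:**
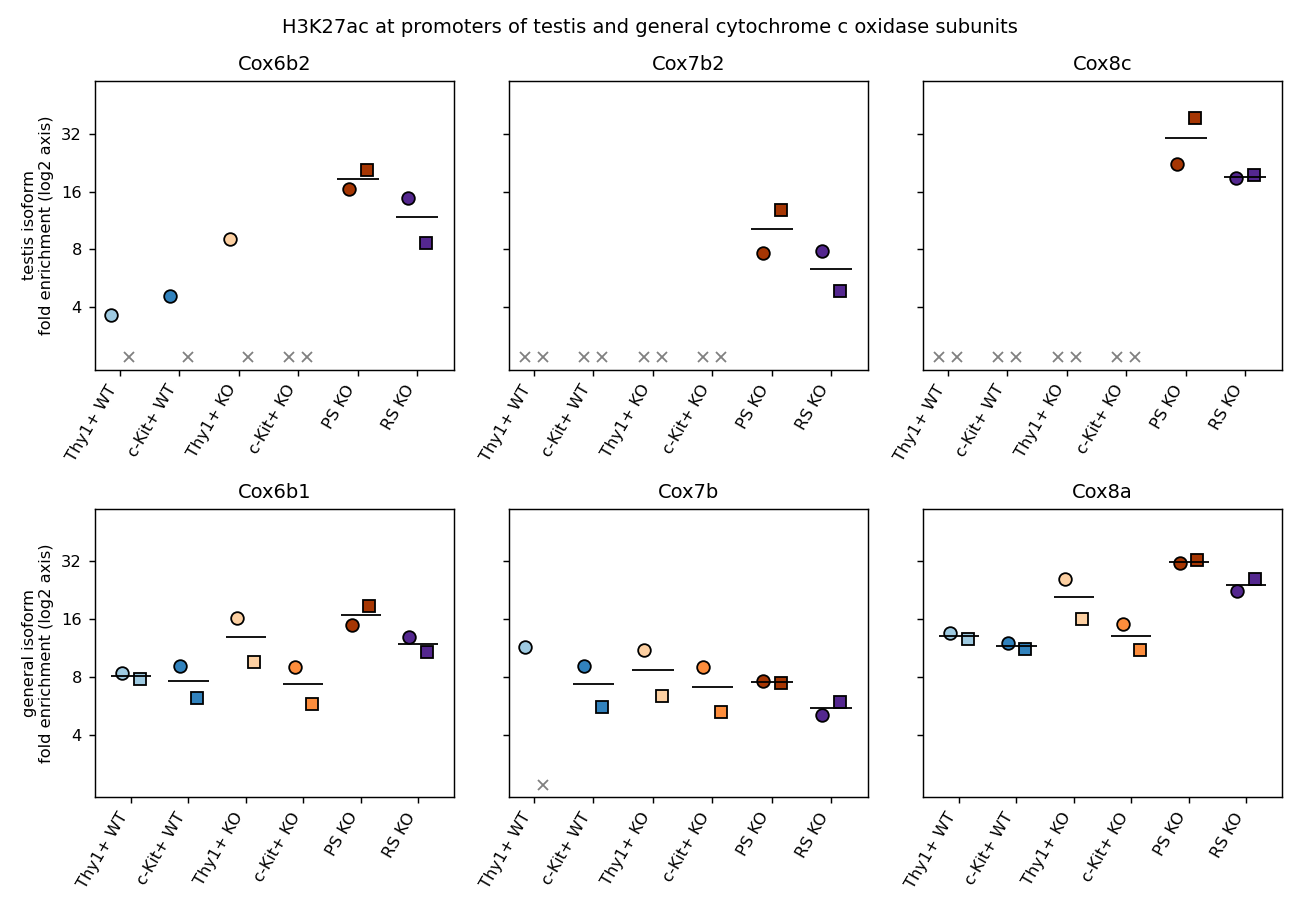
Fold enrichment of H3K27ac at the promoters of the 3 testis isoforms (top) and their general counterparts (bottom), on a log2 axis, by group (circles replicate 1, squares replicate 2, black bars the mean of both where both were called, grey crosses at the foot of the axis no call). Cox7b2 and Cox8c have values only in PS KO and RS KO, and Cox8a has one in every library.

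The balance within each pair was compared between adult and spermatogonial KO cells as the log2 ratio of testis to general isoform in the same library, which needs no scaling between libraries. A promoter without a call was set to the lowest fold enrichment of its library. The spermatogonial ratios that used it are upper bounds, provided that no peak listed otherwise lay at that promoter. For Cox8c over Cox8a the log2 ratio was −0.50 and 0.24 in PS KO and −0.25 and −0.42 in RS KO, and −2.87, −2.06, −2.19 and −1.66 in the KO spermatogonia. Its mean was −0.23 ± 0.33 (SD, n = 4) in adult cells and −2.19 ± 0.50 (SD, n = 4) in spermatogonia, a difference of 1.96. For Cox7b2 over Cox7b the means were 0.28 ± 0.51 and −1.10 ± 0.52, a difference of 1.38, and for Cox6b2 over Cox6b1 they were 0.04 ± 0.25 and −1.08 ± 0.35, a difference of 1.13 (SD, n = 4 in each). In each of the 3 pairs every adult library lay above every spermatogonial one. The exact permutation test over libraries gave p = 0.0286 for each pair (2-sided, 4 against 4), the smallest that its 70 splits allow. Benjamini-Hochberg adjustment over the 3 pairs left it at 0.0286. In KO spermatogonia the testis value was the lowest fold enrichment of its library throughout for Cox8c and Cox7b2. For Cox6b2 it was so except in Thy1+ KO replicate 1. The separation thus largely restates the missing calls given above. The test also pooled PS with RS, and Thy1+ with c-Kit+, as exchangeable libraries. A replicate block, described below, raised each exact p above the threshold used for the other comparisons. With peaks of −log10 q of at least 5 only, the differences were 0.60 for Cox6b2 (exact p = 0.0571) and 0.77 for Cox7b2 (exact p = 0.0857). Without Thy1+ KO replicate 1 the difference for Cox7b2 was 1.20, and without c-Kit+ KO replicate 1 it was 1.27, each with an exact p of 0.0571.

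Beside Cox7b2 and Cox8c, Ndufa4l2, a paralogue of Ndufa4 that is known to be induced in low oxygen, was called in all 4 adult libraries and no spermatogonial one. These 3 made up 3.23% of the members, against 6.86% of all genes with that pattern. Ndufa4l2 had a fold enrichment of 13.7 and 12.8 in PS KO and 9.78 and 6.49 in RS KO. Its general counterpart Ndufa4 had 8.38 to 18.2 in spermatogonia and 9.20 to 15.99 in adult cells, which overlapped. No member was called in all 8 spermatogonial libraries and no adult one, a pattern that 0.0504% of all genes had.

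The isoforms known from other tissues were marked weakly or not called. Cox8b had a promoter peak in PS KO replicate 1 only, at 3.05, and Cox6a2 in RS KO replicate 1 only, at 3.91. Cox7a1 was called in 9 libraries at 4.34 to 8.39, where the general copy Cox7a2 was called in all 12 at 6.82 to 24.0. Cox4i2, the copy of subunit 4 known from lung, had no promoter peak in any of the 12 libraries and is not among the 93, while its general copy Cox4i1 had 8.75 to 30.4. Cox6a1, the general copy of Cox6a2, had 5.58 to 22.1 in all 12. The other members called in only some libraries were Atp5sl (10 libraries), Ndufa1 (10) and Cox7b (11), and each of these was called in all 4 adult libraries.

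Whether loss of Scml2 went with a change at these promoters was examined in spermatogonia, where both genotypes were present. Peaks that overlapped across the compared libraries were joined into 1 region each, and regions called in all of these libraries were tested by limma on the log2 fold enrichment, each library centred on its median region, and p-values were adjusted by the Benjamini-Hochberg method over all regions. In Thy1+ cells 0 of 83 testable members passed an adjusted p of 0.05 (0.00923% of all regions passed), and 6 had an unadjusted p under 0.05 (7.23%, against 5.16% of all regions). In c-Kit+ cells 0 of 84 passed (0% of all regions), with 2 under an unadjusted 0.05 (2.38%, against 4.8%). With both cell types in 1 fit and stage as a covariate, 0 of 83 passed (0% of all regions); 7 of 83 (8.43%) had an unadjusted p under 0.05, as did 5.24% of all regions. The genotype by stage interaction called 0 of 83 (0% of all regions), with 1 under an unadjusted 0.05 (1.20%, against 4.73%). The median standard error of a member's log2 change was 0.22 in each cell type and 0.16 in the joint fit.

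The largest difference between genotypes in Thy1+ cells and in the joint fit, named after its values were seen, was at Atp5k, the subunit e of ATP synthase, whose promoter is printed above. Its fold enrichment was 4.72 and 5.43 in Thy1+ WT, 15.7 and 13.4 in Thy1+ KO, 7.41 and 6.82 in c-Kit+ WT, and 11.3 and 8.75 in c-Kit+ KO. The KO libraries were the higher in both cell types without overlap. The log2 difference, KO minus WT and relative to the median region, was 0.99 ± 0.25 (SE) in Thy1+ cells (limma, adjusted p = 0.55), 0.41 ± 0.22 in c-Kit+ cells (adjusted p = 0.94) and 0.73 ± 0.17 over both (adjusted p = 0.75). None passed the threshold. At the other end lay Ndufa9, a subunit of complex I, at −0.57 in Thy1+ cells, Ndufa5 at −0.61 in c-Kit+ cells and Atp5d at −0.36 over both.

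Between the spermatogonial stages, no member passed either. From Thy1+ to c-Kit+ cells, 0 of 83 members were called in WT (0.216% of all regions were) with 4 under an unadjusted p of 0.05 (4.82%, against 9.54% of all regions). In KO 0 of 85 were called (0% of all regions), also with 4 under an unadjusted 0.05 (4.71%, against 11.3%; limma in both). The members' log2 changes had medians of 0.07 in WT and −0.05 in KO.

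Between c-Kit+ spermatogonia and PS, both KO, 10 of 85 testable members passed, 4 higher and 6 lower relative to the median region (limma, 11.8%). Of all regions 31.9% passed, 6.83% higher and 25.1% lower, and of promoter regions 23.4%. The higher members were Ndufaf3 (log2 change 1.34), Sdhaf1 (0.69), Ndufa11 (0.60) and Atp5d (0.56). The lower members were Cox7c (−0.99), Cox7b (−0.94), Ndufa9 (−0.75), Ndufs4 (−0.66), Ndufaf5 (−0.61) and Atp5j (−0.56). Without c-Kit+ KO replicate 2, 0 of 87 members passed, and without PS KO replicate 2, 3 of 85 did. Quantile scaling left 2 of these calls, 1 higher and 1 lower. With missing calls filled in, 4 members passed, all higher, and 1 of the 10 calls was kept. The shares of all regions that passed in these refits are not given here, so these losses do not set the members apart. None of the 10 genes kept its call under every alternative. From PS to RS, 1 of 91 members passed: Ndufa11, an accessory subunit in the membrane arm of complex I, was lower by a log2 change of −0.75 (limma, adjusted p = 0.0266), where 20.2% of all regions passed, 7.79% of all regions as lower, and 10.1% of promoter regions did. Ndufa11 had a fold enrichment of 27.8 and 34.1 in PS KO, 17.6 and 14.6 in RS KO, and 8.16 to 18.7 in spermatogonia. PS KO stood above all other groups there. This call was lost without PS KO replicate 2 (adjusted p = 0.16), without RS KO replicate 1 (0.12) and without RS KO replicate 2 (0.088).

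With both adult groups set against both spermatogonial groups of the KO, 25 of 85 testable members passed (29.4%), 6 higher and 19 lower relative to the median region; of all regions 40.6% passed, 12.8% higher and 27.8% lower, and of promoter regions 37.9%. The share of members called was thus below that of all regions. The median log2 change was −0.11 for members, −0.12 for all regions and −0.08 for promoter regions. The scale matters for the direction: the median region had a log2 fold enrichment of 2.92 to 4.02 in the KO spermatogonial libraries and 3.76 to 4.30 in the adult ones, so a promoter of equal fold enrichment at both stages counts as lower. Without PS KO replicate 1, 15 members passed (5 higher, 10 lower), and without RS KO replicate 1, 15 (4 higher, 11 lower). With missing calls filled in by a library's lowest value and more regions tested, 15 of 91 passed, 14 of them higher and 1 lower, so the split between directions turned with this choice. For these refits too, the shares of all regions that passed are not given here. Atp5d, Cox7c, Ndufa13, Ndufaf3 and Sdhaf1 passed in the same direction under each alternative and with each library left out.

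**Figure D3:**
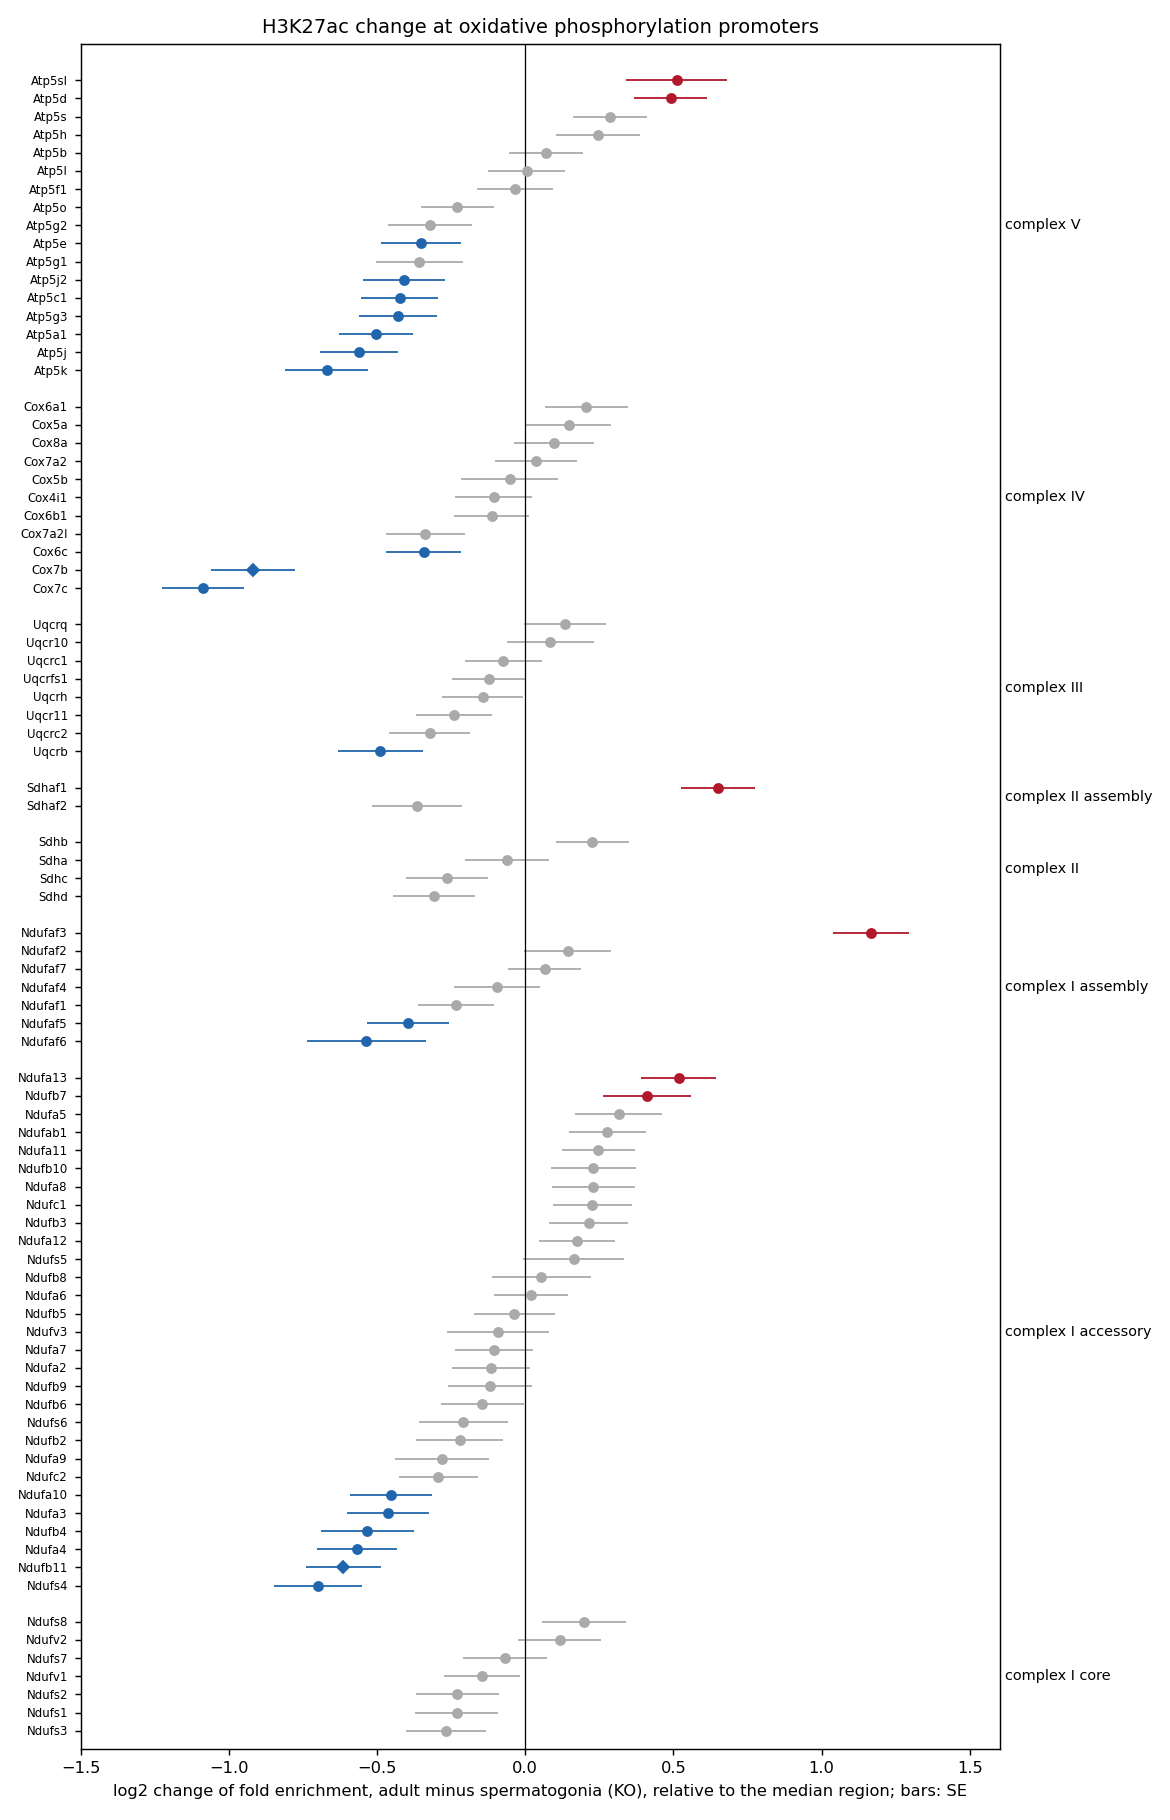
Log2 change of H3K27ac fold enrichment from spermatogonia to adult cells in the KO, relative to the median region (horizontal axis), for 85 members ordered by complex and change (vertical axis; bars are ± 1 SE, red and blue points passed an adjusted p of 0.05 as higher and lower, grey did not, diamonds are X-linked). Ndufaf3 lies highest at 1.17 and Cox7c lowest at −1.09.

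The counts by complex that follow stand against 40.6% of all regions passing, 12.8% higher and 27.8% lower. Differences between complexes were not tested. Members were assigned by symbol, so Ndufa4, which was lower, is counted with the accessory subunits of complex I and not with complex IV. Among complex I, none of the 7 core subunits, which carry the electron path, passed. Of 29 accessory subunits 2 were higher and 6 lower, and of 7 assembly factors 1 was higher and 2 lower. Ndufaf3, an assembly factor of the matrix arm of complex I, stood apart (chr9:108565324-108571866). Its fold enrichment was 12.6 and 7.24 in Thy1+ WT, 8.55 and 9.30 in c-Kit+ WT, 15.7 and 10.9 in Thy1+ KO, 8.99 and 7.00 in c-Kit+ KO, 38.9 and 46.4 in PS KO and 35.6 and 27.6 in RS KO. Every adult library lay above every spermatogonial one. The log2 change was 1.17 ± 0.13 (SE; limma, adjusted p = 1.2e-05), and the percentile was 38.6 to 56.4 in the KO spermatogonia and 95.4 to 99.5 in adult cells. The merged region also holds the starts of Dalrd3, Mir191 and Mir425.

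Ndufa13, an accessory subunit also known as GRIM-19, had a fold enrichment of 13.7 and 8.95 in Thy1+ KO, 10.4 and 8.16 in c-Kit+ KO, 24.0 and 22.4 in PS KO and 23.9 and 22.2 in RS KO. The adult libraries lay above the others without overlap, and the log2 change was 0.52 ± 0.13 (SE; limma, adjusted p = 0.0044). Its region (chr8:69900658-69904695) also holds the start of Tssk6, a kinase gene of spermatids. Ndufb7, an accessory subunit that faces the intermembrane space, was higher by 0.41. Ndufs4, an accessory subunit near the NADH-binding module, fell by 0.70, Ndufa4 by 0.57, Ndufb4 by 0.53 and the assembly factor Ndufaf6 by 0.54, each relative to the median region. In fold enrichment itself Ndufs4 overlapped between stages, at 17.7 and 13.4 in Thy1+ KO, 10.9 and 7.58 in c-Kit+ KO, 13.7 and 10.7 in PS KO and 13.7 and 9.20 in RS KO.

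None of the 4 subunits of complex II passed, nor did the second assembly factor Sdhaf2. Sdhaf1, which helps to insert iron-sulphur clusters into Sdhb, was higher by 0.65 ± 0.12 (SE; limma, adjusted p = 0.00082). Its fold enrichment was 12.2 and 7.67 in Thy1+ KO, 8.51 and 5.83 in c-Kit+ KO, 22.5 and 25.6 in PS KO and 18.4 and 17.3 in RS KO, with no overlap between stages. Of 8 members of complex III 1 passed: Uqcrb, a subunit near the quinone-binding site, was lower, and it shares its region with Gm10767.

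Of 11 testable members of complex IV, 3 were lower and none higher (of all regions, 27.8% and 12.8%). Cox7c, a small subunit with a single membrane helix, fell furthest (chr13:86045908-86047122). Its fold enrichment was 15.7 and 13.9 in Thy1+ WT, 21.7 and 14.9 in c-Kit+ WT, 25.3 and 17.9 in Thy1+ KO, 23.6 and 14.6 in c-Kit+ KO, 19.1 and 20.3 in PS KO and 14.1 and 9.20 in RS KO. These levels overlapped between the stages, while the percentiles did not: 84.6 to 98.2 in the KO spermatogonia and 32.5 to 58.6 in adult cells. The log2 change relative to the median region was −1.09 ± 0.14 (SE; limma, adjusted p = 3.5e-05). Cox7b followed at −0.92 ± 0.14 (SE; limma, adjusted p = 0.00016), and Cox6c passed close to the threshold at −0.34 (adjusted p = 0.0412). The testis isoforms are absent from this fit, since they were not called in every spermatogonial library. Cox8a (0.10) and Cox6b1 (−0.11) did not pass.

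Of 17 testable members with an Atp5 symbol, 2 were higher and 7 lower (of all regions, 12.8% and 27.8%), with a median log2 change of −0.32. Atp5d, the delta subunit in the central stalk of ATP synthase, had a fold enrichment of 14.7 and 8.95 in Thy1+ KO, 7.00 and 8.51 in c-Kit+ KO, 23.6 and 24.5 in PS KO and 21.1 and 16.2 in RS KO. The adult libraries were the higher without overlap, and the log2 change was 0.49 ± 0.12 (SE; limma, adjusted p = 0.0055). Atp5sl was higher by 0.51 (limma, adjusted p = 0.0262), and the call was lost when any of 5 of the 8 libraries was left out. The lower members with the largest changes were Atp5k (−0.67), Atp5j, a peripheral stalk subunit (−0.56), and Atp5a1, the alpha subunit of the catalytic head (−0.50). Atp5a1 had 29.9 and 19.8 in Thy1+ KO, 18.0 and 12.2 in c-Kit+ KO, 25.9 and 25.6 in PS KO and 19.6 and 16.2 in RS KO, so its fold enrichment overlapped between stages.

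Chromosome X is silenced in male germ cells during meiosis, and 3 members lie on it. Ndufb11, an accessory subunit of complex I (chrX:20616657-20618802, shared with Rbm10), had a fold enrichment of 14.2 and 9.59 in Thy1+ KO, 9.93 and 6.41 in c-Kit+ KO, 11.8 and 12.3 in PS KO and 9.39 and 7.57 in RS KO, and fell by 0.61 ± 0.13 on the log2 scale relative to the median region (SE; limma, adjusted p = 0.0013). The fold enrichment of Ndufb11 overlapped between the stages. So did its percentile, at 31.4 to 49.2 in the KO spermatogonia and 24.3 to 33.4 in adult cells. Cox7b fell as given above, and its percentiles also overlapped, at 16.3 to 42.1 and 9.17 to 19.0. Ndufa1, a small accessory subunit, was not called in Thy1+ WT replicate 1 and c-Kit+ KO replicate 2 and so was not testable. It had 3.31 to 6.08 where called in spermatogonia, 9.53 and 11.7 in PS KO and 6.65 and 6.49 in RS KO, with each adult value above the spermatogonial ones. Its percentile was 0.552 to 12.6 in the KO spermatogonia and 16.9 to 30.9 in adult cells, without overlap, and its peak is shared with Rnf113a1. Of all 223 X-linked promoter regions tested, 109 were lower and 11 higher (53.8% passed), with a median log2 change of −0.38.

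**Figure D4:**
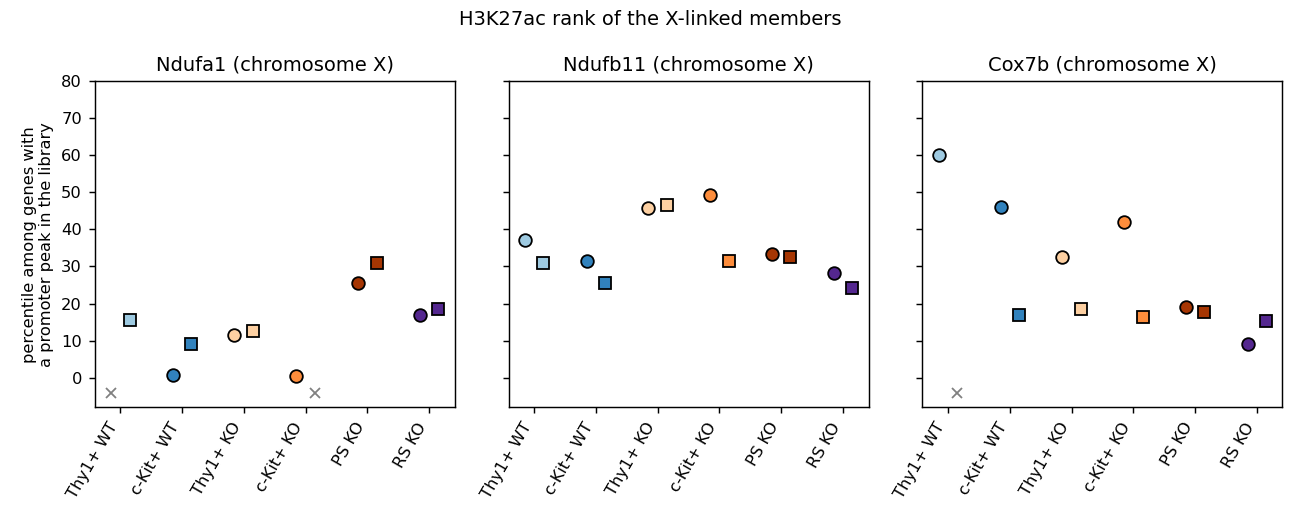
Percentile of the 3 X-linked members among all genes with a promoter peak in the same library (vertical axis) by group (horizontal axis; circles replicate 1, squares replicate 2, crosses below 0 no call). Ndufa1 lies at 16.9 to 30.9 in adult cells and at or below 12.6 in the KO spermatogonia.

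Other genes of the pathway, 46 assembly factors, carriers, cytochromes and regulators listed by name, were described in the same way. A promoter peak was found for 45, and 39 of these were called in all 12 libraries. From spermatogonia to adult cells of the KO, 41 were testable, of which 5 were higher and 7 lower (limma; background 40.6% as above), with a median log2 change of −0.04. The higher ones were Coa3, Sco2, Atpaf2, Esrra and Cox16, and the lower ones Gabpa, Nubpl, Slc25a4, Nrf1, Acad9, Cox10 and Timmdc1. Gabpa is the same region as Atp5j. Nrf1, the gene of the factor whose motif was searched, had a log2 change of −0.49 (adjusted p = 0.0114). Cytochrome c and the ADP/ATP carrier also have testis copies. Cyct, testis cytochrome c, had a fold enrichment of 9.53 and 17.6 in PS KO and 10.6 and 10.3 in RS KO, and was called in 3 spermatogonial libraries at 4.19 to 4.56, while Cycs, the general copy, had 9.91 to 27.2 in all 12. Slc25a31, the testis carrier, had 21.0 and 29.9 in PS KO, 16.8 and 14.1 in RS KO and 3.78 to 6.08 in 3 spermatogonial libraries. The 3 spermatogonial libraries with Cyct were the same replicates 1 as those with Cox6b2. Of the general carriers, Slc25a4 had 9.06 to 10.3 in adult cells and 5.83 to 13.2 in spermatogonia, and Slc25a5 had 15.1 to 20.7 and 5.24 to 11.6.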

How the data were processed

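H3K27ac ChIPmentation was analysed from 12 libraries in 6 groups of 2, with 16 inputs, grouped by sample title. The submitters' processing notes name Bowtie, MACS2 and mm10, without versions or roles. Each library had its own deposited peak table. Per the file headers, each line held a signal height (pileup), a fold enrichment ratio, and −log10 p and −log10 q values, as the authors' caller gave them, with a transcript and a location class; coordinates are counted from 1. In every library the deposited ratio equalled height plus 1 over a constant background plus 1, and no read depth was recorded, so no counting interval was computed.

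A gene's value in a library was its highest promoter-class summit. For comparisons, peaks overlapping by at least 1 bp were merged, regions called in every library compared were kept, and log2 fold enrichment was centred on the library's median region. Models used limma 3.58.1 (R 4.3.3, checked on simulated data), with Benjamini-Hochberg adjustment over all regions and a threshold of 0.05; isoform ratios used exact permutation tests. Other steps used Python 3.11.15, numpy 2.4.6 and pandas 2.3.3. Symbols were matched to RefSeq tables (GRCm38.p6). Alternatives were quantile scaling, centring on promoter regions, −log10 q of at least 5, a 50% overlap, uncalled libraries set to their lowest value (regions called in at least 2 libraries), a replicate block and leaving out each library. Members, lists and tests were chosen with earlier results of these data known. Genes named were the isoforms with their counterparts, X-linked members, those called in only some libraries, the 4 highest and 4 lowest in rank, and at most 10 in each direction per comparison. H3K27ac of WT PS and WT RS was not analysed here.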

Additional observations from a re-analysis of the deposited data

Results flagged for a closer look

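Peaks outside promoters were not used in the comparisons. Of 217 such regions listed under a member alone, 10 were called in all 4 adult libraries and overlapped no input peak. Of these, 5 were called in no spermatogonial library, which flagged them as signal outside the main measurement. The share over all regions outside promoters is not given here, and adult libraries held more peaks than spermatogonial ones. These counts therefore do not set the members apart from other genes. Among the 5 regions with no spermatogonial call, an upstream region of Uqcrfs1 (chr13:30547879-30552168) had the highest mean fold enrichment over the 4 adult libraries, 20.5. It had 26.3 and 26.1 in PS KO and 15.6 and 14.1 in RS KO. An intergenic region listed under Atp5sl (chr7:25567337-25569308) had a mean of 10.8, with 8.39 and 4.80 in PS KO and 14.9 and 15.1 in RS KO, and was the only one of the 5 with higher values in RS than in PS. An intergenic region listed under Cox7b2 (chr5:71193066-71194683) had a mean of 10.2, with 13.7 and 16.5 in PS KO and 6.26 and 4.33 in RS KO. The intergenic regions listed under Ndufb4 (chr16:37639391-37640369) and Ndufa3 (chr7:3573303-3574038) had means of 10.1 and 7.21. The authors' nearest transcript was used to list a region under a gene, and no link to that gene was tested.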

How the results depend on the processing

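The counts of 0 called members between genotypes, in their interaction and between Thy1+ and c-Kit+ cells stayed at 0 under each alternative run. For PS against c-Kit+ cells the 10 calls became 2 with quantile scaling (1 higher, 1 lower), which moved the median of all regions from −0.17 to −0.01. With missing calls filled in by the lowest value of the library, 4 members passed (4 higher, 0 lower), and 1 of the 10 calls was kept. Leaving out 1 library gave 0 to 9 calls. None of the 10 genes kept its call under every alternative. For RS against PS the 1 call became 0 with centring on promoter regions and 3 with missing calls filled in, and 0 to 1 with 1 library left out. For adult cells against spermatogonia 15 members passed with missing calls filled in, and 7 of the 25 calls were kept. With 1 library left out 15 to 28 members passed. With missing calls filled in Cox6c changed from −0.34 to 0.000499, the only reversal. The cause of these shifts was not tested, beyond the larger number of regions tested where uncalled libraries were filled in. The shares of all regions that passed under each alternative are not given here. With peaks of −log10 q of at least 5 the isoform difference was 0.60 for Cox6b2 (exact p = 0.0571) and 0.77 for Cox7b2 (exact p = 0.0857); with 1 library left out they ranged from 1.01 to 1.25 for Cox6b2, from 1.20 to 1.57 for Cox7b2 and from 1.74 to 2.14 for Cox8c. Read depth is not recorded, and its part in the missing calls was not tested.

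The replicate numbers are shared by all groups, but same-numbered libraries deviated together only weakly, with mean correlations, across regions, of distances from the group mean of 0.0004 to 0.17 over the fits, so the numbers were not taken as pairs. In a replicate block fit the isoform differences were the same (1.13, 1.38 and 1.96) and each exact p was 0.0556, the smallest that the blocked design allows. In the region fits the block moved no count of called members by over 1.5 times: it called 0 where the fit without it called 0, and lost Atp5d and Atp5j between PS and c-Kit+ cells and Atp5e between adult cells and spermatogonia.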

Other observations

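Of the 217 regions outside promoters that were listed under a member alone, 1 was called in all 8 spermatogonial libraries without overlapping an input peak. None was called in all 8 spermatogonial libraries and no adult one. The shares over all such regions are not given here either. Cox4i2, which had no promoter peak, had an upstream peak (chr2:152739351-152740183) at 4.27 to 7.63 in the 4 adult libraries and at 3.42 to 8.10 in 6 of the 8 spermatogonial ones, so its levels overlapped between stages. Ppargc1a, which encodes a coactivator of mitochondrial genes, had a promoter peak in PS KO (5.34 and 8.00) and in neither RS KO library, and in 5 spermatogonial libraries at 3.62 to 9.12. In c-Kit+ KO the promoter peak was called in replicate 1 only, so the promoter alone was not testable against PS. The merged region that holds it takes in a peak not listed as its promoter in c-Kit+ KO replicate 2. From c-Kit+ cells to PS in the KO the log2 change of that merged region was −1.21 ± 0.21 relative to the median region (SE, limma, adjusted p = 0.0012).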
